A study of Mus musculus with 32 samples.

Results

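The genes described here are 10 secreted regulators of BMP and activin signalling, 5 ligand genes (Bmp2, Bmp4, Bmp6, Gdf5 and Inhba) and 5 genes for extracellular antagonists (Fst, Grem1, Nog, Chrd and Chrdl1), chosen by symbol out of 41388 genes in the count files. They were followed through 32 RNA sequencing libraries of primary chondrocytes of newborn C57BL/6 mice, 2 libraries for each of 16 conditions. The methods give sterna and ribs as the source of such cells. The cells were used unpassaged and at normal oxygen. Wild-type cells were left untreated or received FX11 (40 µM), an inhibitor of lactate dehydrogenase A, IL-1β (10 ng/mL) or both agents for 24 h. Cells carrying floxed Ldha, Nampt or Nfkbiz were infected for 24 h with adenovirus for eGFP alone (GFP) or for Cre and eGFP (Cre), and then kept for 24 h with IL-1β or without it. These lines are called Ldha flox, Nampt flox and Nfkbiz flox. All 24 libraries of the floxed lines therefore carry an adenovirus, and the wild-type libraries carry none. No library combines Cre virus with unfloxed alleles, so that loss of the floxed gene and exposure to Cre cannot be told apart within a line. Nfkbiz encodes IκBζ, a nuclear cofactor of NF-κB, and Nampt encodes the enzyme that limits NAD salvage.

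BMPs and GDF5 are ligands of the TGFβ superfamily that bind type I and type II serine/threonine kinase receptors and act through SMAD1, SMAD5 and SMAD9. They drive cartilage condensation, chondrocyte proliferation and hypertrophy in the growing skeleton. Inhba encodes the βA chain of activin A, which signals through SMAD2 and SMAD3. Noggin, chordin, chordin-like 1, gremlin 1 and follistatin are secreted proteins that hold ligands away from the receptors, follistatin with a strong preference for activins.

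In GRCm38 with GENCODE M21 names, the ligand genes are Bmp2 (ENSMUSG00000027358) at chr2:133552159-133562885 (plus strand), Bmp4 (ENSMUSG00000021835) at chr14:46383520-46390669 (minus strand), Bmp6 (ENSMUSG00000039004) at chr13:38345716-38499728 (plus strand), Gdf5 (ENSMUSG00000038259) at chr2:155941023-155945367 (minus strand) and Inhba (ENSMUSG00000041324) at chr13:16011851-16027211 (plus strand). The antagonist genes are Fst (ENSMUSG00000021765) at chr13:114452262-114458730 (minus strand), Grem1 (ENSMUSG00000074934) at chr2:113746164-113758646 (minus strand), Nog (ENSMUSG00000048616) at chr11:89300638-89302332 (minus strand), Chrd (ENSMUSG00000006958) at chr16:20733127-20742384 (plus strand) and Chrdl1 (ENSMUSG00000031283) at chrX:143285674-143394262 (minus strand). Each value counts reads over all exons of the gene. Exons of Bmp4 overlap Gm15217, exons of Gdf5 overlap Gm15557 and exons of Chrd overlap Thpo on the opposite strand. The use of strand in counting is not stated. According to the methods only unambiguous reads were counted. If strand was not used, reads of these 3 members from the overlapping stretches were left out.

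RefSeq promoters (GRCm38.p6, 250 bases before to 50 after the start) matched 5 of the 10 members, Grem1, Inhba, Bmp6, Bmp4 and Chrd, and the 250 bases before the start of 3 are shown because they belong to members with opposite IL-1β responses. Grem1 at chr2:113758649-113758898 (minus strand) and Inhba at chr13:16011601-16011850 (plus strand) belong to genes that rose with IL-1β, and Chrd at chr16:20732877-20733126 (plus strand) to a gene that fell. Capitals mark the sequence GGCGCC, a GC element described at BMP-responsive genes, which reads the same on both strands.
Grem1: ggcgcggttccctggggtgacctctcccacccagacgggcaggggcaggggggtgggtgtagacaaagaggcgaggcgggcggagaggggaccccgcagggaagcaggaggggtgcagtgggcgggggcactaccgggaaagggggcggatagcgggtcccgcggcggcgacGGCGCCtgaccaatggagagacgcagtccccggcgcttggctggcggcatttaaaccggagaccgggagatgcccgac
Inhba: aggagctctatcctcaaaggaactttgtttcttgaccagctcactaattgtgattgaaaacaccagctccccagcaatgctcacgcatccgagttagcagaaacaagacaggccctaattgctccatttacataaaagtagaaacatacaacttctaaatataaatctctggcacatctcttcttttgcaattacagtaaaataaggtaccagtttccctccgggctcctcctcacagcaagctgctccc
Chrd: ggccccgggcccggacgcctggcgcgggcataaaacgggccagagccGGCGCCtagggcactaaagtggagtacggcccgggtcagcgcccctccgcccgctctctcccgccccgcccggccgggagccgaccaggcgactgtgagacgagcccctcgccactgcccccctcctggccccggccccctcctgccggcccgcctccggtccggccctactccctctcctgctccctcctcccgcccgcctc
The GC element lay 78 to 73 bases before the Grem1 start and 203 to 198 bases before the Chrd start, and it was not in the Inhba, Bmp4 or Bmp6 window. It was present in 11.9% of 32817 promoters of this length. The AP-1 sequence TGANTCA (7.81% of promoters) and the κB consensus (8.46% of promoters), searched on both strands, had no match in the 5 windows. A match is a description of the letters and was not tested as a binding site.

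The libraries held 15830658 to 39959888 counts, and levels are given as CPM (counts scaled to a common library size with TMM factors over all 32 libraries). Cre virus lowered its target in every line. Ldha was 937 and 876 CPM with GFP and 119.8 and 111 CPM with Cre, Nampt was 60.1 and 54.7 and 6.77 and 6.80 CPM, and Nfkbiz was 233 and 228 CPM with GFP and IL-1β and 29.1 and 32 CPM with Cre and IL-1β. In Nfkbiz flox without IL-1β, Nfkbiz was 16.0 and 16.9 CPM with GFP and 9.55 and 8.18 CPM with Cre. With IL-1β, Nfkbiz was also lower with Cre in the lines where it was not floxed. It went from 177 and 162 to 70.0 and 64.8 CPM in Ldha flox. In Nampt flox it went from 200 and 199 to 67.9 and 59.5 CPM. The share of the fall in Nfkbiz flox that came from deletion was not tested. None of the 10 chondrocyte markers was at 0 counts in a library, with a summed level of 13446 to 99172 CPM. In the floxed lines Mmp3, an IL-1β response gene, separated libraries with IL-1β from those without it. In wild type, the second library labelled IL-1β had Mmp3 at 0.790 CPM, just under the 1.08 and 0.805 CPM of untreated cells. The second library labelled FX11 had Mmp3 at 2033 CPM, so that both libraries go against their labels. The labels do not name separate cultures or animals for the libraries of a condition, and p-values measure only the spread between these libraries. In bulk RNA, fewer cells of a type and less RNA per cell cannot be told apart.

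Per kilobase of exon, the level that allows genes to be compared, Nog stood highest in GFP cultures without IL-1β at a median of 21.5 CPM per kb over the 6 libraries of 3 lines (17.4 to 35.3). Chrdl1 followed at 15.2 (13.0 to 28.4), Bmp6 at 11.8 (10.9 to 13.7) and Grem1 at 8.85 (6.72 to 27.5) CPM per kb. The middle of the order was taken by Fst at 6.41, Inhba at 5.07, Bmp2 at 4.94 and Bmp4 at 3.25 CPM per kb. Gdf5 at 1.48 and Chrd at 0.734 CPM per kb were the lowest, and the ranges of neighbours in this order overlapped except from Bmp2 to Bmp4, from Bmp4 to Gdf5 and from Gdf5 to Chrd. With IL-1β the order changed to Grem1 first at 34.7 CPM per kb (34.4 to 78.2), then Fst at 14.9, Bmp6 at 14.2 and Inhba at 12.9, with Nog at 5.92 and Chrdl1 at 3.33 CPM per kb. In GFP cultures Nog and Chrdl1 thus led among these genes without IL-1β, and Grem1 led with it.

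**Figure D1:**
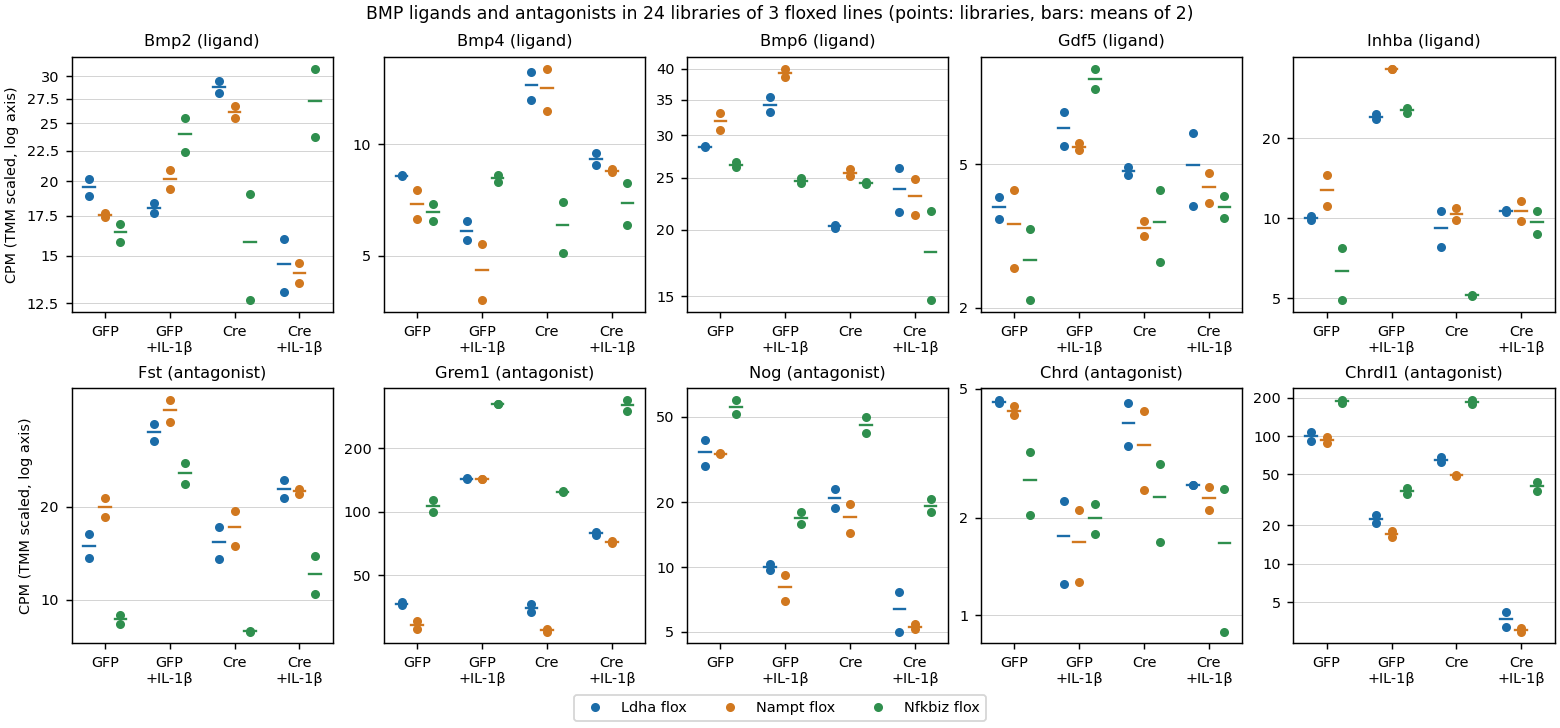
Level of each member in CPM (TMM scaled, log axis) in the 24 libraries of the Ldha flox, Nampt flox and Nfkbiz flox lines, by virus and IL-1β; points are libraries and bars the means of 2. Chrdl1 lay at 87.9 to 192 CPM in all GFP libraries without IL-1β and at 2.93 to 4.22 CPM in the Ldha flox and Nampt flox libraries with Cre and IL-1β, and Grem1 was higher in every GFP library with IL-1β than in every GFP library of its line without it.

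The first comparison asked how IL-1β changed these genes in GFP control cultures. Inhba, Fst and Grem1 rose and Nog and Chrdl1 fell in each of the 3 lines, and Gdf5 also rose in each line. Chrd fell in Ldha flox and Nampt flox. Bmp2, Bmp4 and Bmp6 had log2 fold changes between -0.50 and 0.56 in the 3 lines. Of the 10 members, 8 were called at an adjusted p of 0.05 or less in Ldha flox (4 higher and 4 lower, where 27.9% of all genes tested were called), 8 in Nampt flox (5 higher and 3 lower, 35% of all genes) and 7 in Nfkbiz flox (5 higher and 2 lower, 26.8% of all genes). Over the 12 GFP libraries of the 3 lines, 9 were called (6 higher and 3 lower, 56.2% of all genes), Bmp4 being the exception, and with 1 library left out the count ranged from 7 to 9. The 6 higher include Bmp2 and Bmp6, whose lines did not share a direction. Mean Bmp2 went from 19.5 to 18.0 CPM in Ldha flox and mean Bmp6 from 26.4 to 24.7 CPM in Nfkbiz flox. Each had a higher mean with IL-1β in the other lines.

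Among the ligands, Inhba showed the largest rise. It stood at 10.2 and 9.85 CPM without and 23.6 and 24.7 CPM with IL-1β in Ldha flox. The values were 14.5 and 11.2 against 36.3 and 36.6 CPM in Nampt flox and 4.91 and 7.76 against 26.1 and 25.0 CPM in Nfkbiz flox. The groups did not overlap in any line, and the rise over the 3 lines was 3.03-fold (log2 fold change 1.60 ± 0.11, SE, adjusted p = 3.0e-09 by edgeR's quasi-likelihood test). Gdf5, a ligand best known from joint formation, was low. It stood at 3.54 and 4.07 CPM without and 5.64 and 6.99 CPM with IL-1β in Ldha flox, 4.25 and 2.58 against 5.73 and 5.48 CPM in Nampt flox and 3.32 and 2.10 against 9.22 and 8.09 CPM in Nfkbiz flox. Its log2 fold change was 0.76 ± 0.24 in Ldha flox (adjusted p = 0.041), 0.74 ± 0.24 in Nampt flox (adjusted p = 0.037) and 1.70 ± 0.28 in Nfkbiz flox (adjusted p = 5.3e-04). The Ldha flox call was lost when any 1 of its 4 libraries was left out (adjusted p 0.053 to 0.21), and the Nampt flox call without any of 3.

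Bmp2, Bmp4 and Bmp6, ligands of the canonical BMP branch, differed least. Bmp2 lay at 15.8 to 20.2 CPM without and 17.7 to 25.6 CPM with IL-1β, and of the lines only Nfkbiz flox passed the test (log2 fold change 0.56 ± 0.18, adjusted p = 0.039), and did not without any 1 of its 4 libraries (adjusted p 0.075 to 0.22). Over the 3 lines the call on Bmp2 (0.24) was lost with the replicate number of each line as a block (adjusted p = 0.051), with limma and without any 1 of 3 libraries. Bmp6 lay at 26.2 to 33.1 CPM and 24.4 to 40.0 CPM and passed in Nampt flox (log2 fold change 0.36 ± 0.09, adjusted p = 0.011), though not without the first GFP library or the second GFP library with IL-1β (adjusted p 0.080 and 0.063). Over the 3 lines the call on Bmp6 (0.20) was lost without the first Ldha flox GFP library with IL-1β, the first Nampt flox GFP library or either Nampt flox GFP library with IL-1β (adjusted p 0.063 to 0.079). With the title set as a block, which paired the libraries of Ldha flox and of Nampt flox, Bmp6 also passed in Ldha flox (adjusted p = 0.019), and in Nampt flox so did Bmp2 (adjusted p = 0.032) and Bmp4 (adjusted p = 0.024). Bmp4 was called in Ldha flox, where it was lower, and in no other line without the block. It went from 8.22 and 8.26 to 6.20 and 5.51 CPM in Ldha flox (log2 fold change -0.46 ± 0.14, adjusted p = 0.034), from 6.30 and 7.53 to 5.38 and 3.79 CPM in Nampt flox (log2 fold change -0.50 ± 0.20, adjusted p = 0.073) and from 6.91 and 6.21 to 7.93 and 8.26 CPM in Nfkbiz flox (log2 fold change 0.32 ± 0.21, adjusted p = 0.29). The Ldha flox call on Bmp4 did not hold with DESeq2, with limma, with no filter or without any 1 of its 4 libraries (adjusted p 0.078 to 0.15).

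Among the antagonists, Grem1 had the largest rise. Gremlin 1 binds BMP2 and BMP4. Its gene went from 37.3 and 36.1 to 144 and 142 CPM in Ldha flox, from 27.9 and 30.5 to 144 and 143 CPM in Nampt flox, and from 114 and 100.3 to 324 and 324 CPM in Nfkbiz flox. The libraries of a group lay close together and the groups were far apart, with a rise of 3.98-fold in Ldha flox (adjusted p = 5.8e-08), 5.12-fold in Nampt flox (adjusted p = 2.8e-09) and 3.06-fold in Nfkbiz flox (adjusted p = 1.9e-07). Fst went from 16.4 and 13.6 to 37.0 and 32.7 CPM in Ldha flox, from 21.4 and 18.5 to 44.4 and 37.8 CPM in Nampt flox and from 8.94 and 8.35 to 27.7 and 23.8 CPM in Nfkbiz flox. Every library with IL-1β exceeded every library without it in its line, and the rise was 2.45-fold over the 3 lines (adjusted p = 2.3e-10). RNA of Inhba and RNA of Fst thus rose in the same libraries, and the proteins were not measured here.

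Nog, Chrd and Chrdl1 went the other way. Noggin is a BMP antagonist needed for joint formation, and Nog went from 38.9 and 29.6 to 10.4 and 9.67 CPM in Ldha flox, from 33.9 and 33.4 to 9.17 and 6.93 CPM in Nampt flox and from 51.6 and 59.8 to 18.1 and 15.9 CPM in Nfkbiz flox. The fall was 3.49-fold over the 3 lines (log2 fold change -1.80 ± 0.08, adjusted p = 3.8e-12). Chrdl1 went from 108 and 91.7 to 24.0 and 21 CPM in Ldha flox, from 97.5 and 87.9 to 16.1 and 18.1 CPM in Nampt flox and from 192 and 182 to 38.9 and 35.2 CPM in Nfkbiz flox. That was a fall of 4.83-fold (log2 fold change -2.27 ± 0.06, adjusted p = 7.8e-15), the smallest p of the 10 members, and no library with IL-1β reached the lowest without it. Chrd, the lowest of the members per kilobase, encodes chordin, an antagonist that tolloid proteases cleave. It went from 4.62 and 4.52 to 2.25 and 1.25 CPM in Ldha flox (log2 fold change -1.33 ± 0.29, adjusted p = 0.0074) and from 4.15 and 4.42 to 1.26 and 2.11 CPM in Nampt flox (log2 fold change -1.31 ± 0.34, adjusted p = 0.012, which was lost without the first GFP library with IL-1β, adjusted p = 0.11). In Nfkbiz flox it was 2.04 and 3.19 CPM without and 1.78 and 2.21 CPM with IL-1β, and its groups overlapped. The chondrocyte markers moved with these falls, since 10 of 10 were called lower with IL-1β over the 3 lines with a median log2 fold change of -1.47, beside -0.01 for all genes tested. Their summed level was 72682 to 93709 CPM without and 25844 to 32634 CPM with IL-1β. Both hypertrophic chondrocyte markers, Col10a1 and Ihh, were also called lower (median -1.30), and their summed level went from 517 to 620 CPM down to 122 to 134 CPM in Ldha flox, from 555 to 662 down to 131 to 142 CPM in Nampt flox and from 107 to 113 down to 32.8 to 35.1 CPM in Nfkbiz flox. Of the 5 macrophage markers 3 were tested and 2 of these were called higher (median 0.67), with a sum of 12.6 to 23.1 CPM without and 22.5 to 49.6 CPM with IL-1β. The part of these lists in the members' changes was not tested.

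**Figure D2:**
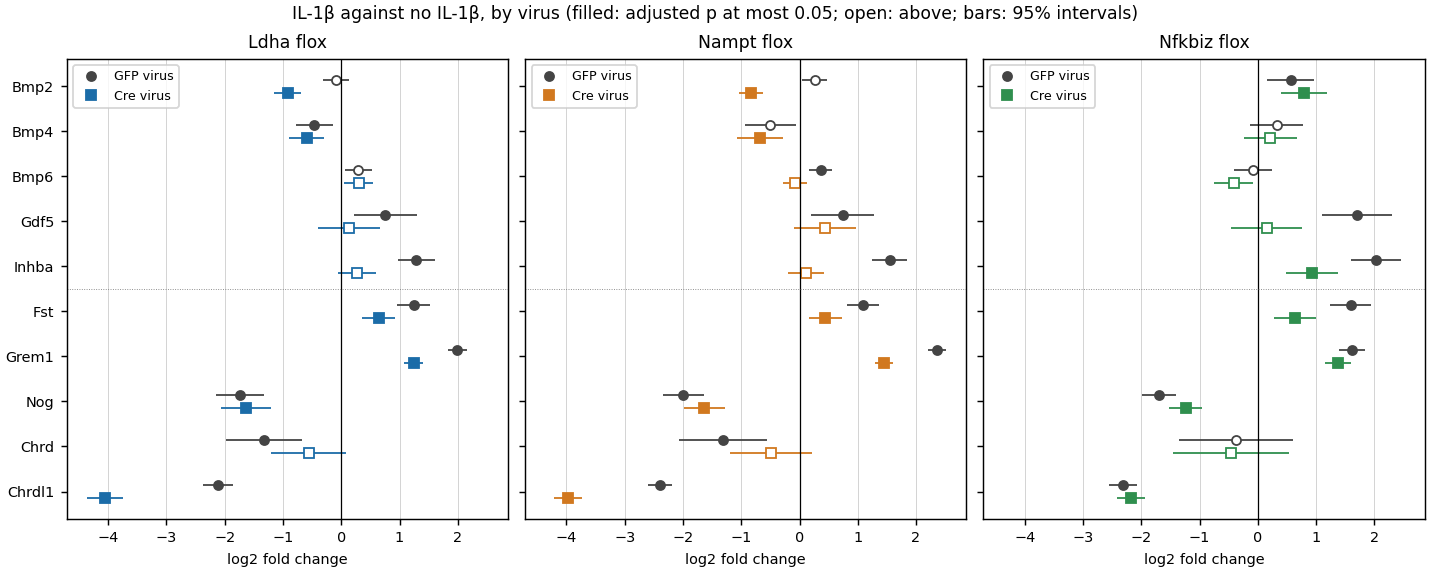
Log2 fold change of IL-1β against no IL-1β for the 10 members in each floxed line, with GFP virus (circles) and with Cre virus (squares); bars are 95% intervals, filled symbols have an adjusted p of at most 0.05 and the dotted line divides ligands from antagonists. Inhba lies between 1.29 and 2.02 with GFP virus and between 0.10 and 0.93 with Cre virus, and Chrdl1 lies at -4.06 in Ldha flox, -3.97 in Nampt flox and -2.18 in Nfkbiz flox with Cre virus.

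The second comparison asked how the IL-1β response differed once Cre virus had been given. In each line 6 of the 10 members were called with IL-1β against no IL-1β in Cre cultures (35.9% of all genes in Ldha flox, 43.9% in Nampt flox and 22.1% in Nfkbiz flox). The difference of the IL-1β responses, Cre minus GFP, was called for 4 members in Ldha flox (11.5% of all genes), 6 in Nampt flox (22% of all genes) and 3 in Nfkbiz flox (5.19% of all genes), and each called difference was negative. Inhba was called in all 3 lines, Bmp2, Grem1 and Chrdl1 in Ldha flox and Nampt flox, Fst in Nampt flox and Nfkbiz flox, Bmp6 in Nampt flox and Gdf5 in Nfkbiz flox.

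Inhba was 10.7 and 7.81 CPM without and 10.8 and 10.5 CPM with IL-1β in Cre cultures of Ldha flox (log2 fold change 0.27, 95% interval -0.06 to 0.59). It was 9.86 and 11.0 and 11.6 and 9.75 CPM in those of Nampt flox (0.10, 95% interval -0.21 to 0.41), and no rise was called in either. In Nfkbiz flox it was 5.11 and 5.14 CPM without and 8.72 and 10.7 CPM with IL-1β, a called rise of 1.90-fold (adjusted p = 0.0075). The difference from GFP cultures was -1.02 ± 0.20 on the log2 scale in Ldha flox (adjusted p = 0.010), -1.45 ± 0.19 in Nampt flox (adjusted p = 4.7e-04) and -1.09 ± 0.28 in Nfkbiz flox (adjusted p = 0.046). The values with IL-1β and Cre, 8.72 to 11.6 CPM, were all under the lowest with IL-1β and GFP, 23.6 CPM. Leaving out 1 library at a time kept the Ldha flox and Nampt flox calls on Inhba, and in Nfkbiz flox 6 of the 8 libraries ended the call (adjusted p 0.012 to 0.17 over the 8).

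The rise of Fst with IL-1β was smaller with Cre than with GFP virus in Nampt flox and Nfkbiz flox. In Cre cultures it was 17.2 and 13.6 CPM without and 24.5 and 21.4 CPM with IL-1β in Ldha flox, 19.4 and 15.0 and 22.9 and 22.1 CPM in Nampt flox, and 7.88 and 7.91 and 10.4 and 13.9 CPM in Nfkbiz flox. The difference of responses was -0.65 ± 0.18, adjusted p = 0.023 in Nampt flox, -0.96 ± 0.23, adjusted p = 0.031 in Nfkbiz flox and -0.60 ± 0.18, adjusted p = 0.060 in Ldha flox, where the title set block gave an adjusted p of 0.0027. The Nampt flox call on Fst was lost without the first Cre library, the second Cre library with IL-1β or the first GFP library with IL-1β (adjusted p 0.065 to 0.0995). Gdf5 was 4.25 and 2.68 CPM without and 3.56 and 4.09 CPM with IL-1β in Cre cultures of Nfkbiz flox (log2 fold change 0.15, 95% interval -0.46 to 0.76), and its difference of responses was -1.54 ± 0.39, adjusted p = 0.041. Leaving out any of 5 libraries ended that call on Gdf5 and any of 6 ended that on Fst in Nfkbiz flox, and with limma Fst alone was called in that line.

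Grem1 kept a rise in Cre cultures of every line. It was 36.6 and 33.4 CPM without and 80.7 and 77.4 CPM with IL-1β in Ldha flox, and 28.0 and 27.0 and 72.7 and 71.5 CPM in Nampt flox. The difference of responses was -0.75 ± 0.10, adjusted p = 0.0012 in Ldha flox and -0.91 ± 0.10, adjusted p = 1.2e-04 in Nampt flox, and both held with each library left out. In Nfkbiz flox Grem1 was 125 and 125 CPM without and 339 and 302 CPM with IL-1β, and the difference was -0.24 (95% interval -0.55 to 0.07, adjusted p = 0.43).

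Chrdl1, whose protein binds BMP4, fell further with IL-1β when Ldha or Nampt was the target of Cre. It went from 68.9 and 62.1 to 4.22 and 3.21 CPM in Ldha flox, a 16.6-fold fall against 4.35-fold with GFP. It went from 49.6 and 49.0 to 2.93 and 3.14 CPM in Nampt flox, a 15.7-fold fall against 5.24-fold with GFP. The difference of responses was -1.93 ± 0.18, adjusted p = 1.6e-04 in Ldha flox and -1.58 ± 0.14, adjusted p = 3.6e-05 in Nampt flox. In Nfkbiz flox Chrdl1 went from 177 and 190.1 to 43.7 and 36.9 CPM, and the difference of responses was 0.14 (95% interval -0.19 to 0.47, adjusted p = 0.71).

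Bmp2 fell with IL-1β in Cre cultures of Ldha flox (1.89-fold, adjusted p = 9.2e-05) and Nampt flox (1.78-fold, adjusted p = 3.5e-05). It went from 29.4 and 28.2 to 16.0 and 13.1 CPM in Ldha flox and from 25.6 and 26.7 to 14.6 and 13.5 CPM in Nampt flox, with differences of responses of -0.83 ± 0.14, adjusted p = 0.0054 and -1.09 ± 0.13, adjusted p = 2.7e-04. In Nfkbiz flox it was 19.1 and 12.6 CPM without and 23.7 and 30.9 CPM with IL-1β, a rise of 1.74-fold (adjusted p = 0.0092) that missed the threshold without the second Cre library or the second Cre library with IL-1β. Bmp6 lay at 20.1 to 25.9 CPM without and 14.7 to 26.1 CPM with IL-1β in Cre cultures, and its difference of responses passed in Nampt flox (-0.44 ± 0.13, adjusted p = 0.032), though not without any of 5 libraries. Bmp4 fell with IL-1β in Cre cultures of Ldha flox (1.51-fold, adjusted p = 0.0070) and Nampt flox (1.60-fold, adjusted p = 0.0093), calls that ended without the first Cre library of the line, and no difference of responses was called. Nog fell with IL-1β in Cre cultures of all lines, by 3.11-fold in Ldha flox, 3.10-fold in Nampt flox and 2.36-fold in Nfkbiz flox, and its difference of responses was between 0.11 and 0.46 with no call. For Chrd the IL-1β change in Cre cultures, -0.56 in Ldha flox, -0.49 in Nampt flox and -0.46 in Nfkbiz flox on the log2 scale, was called in no line.

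The third comparison set Cre against GFP cultures directly, without IL-1β. Bmp2 and Bmp4 were higher and Bmp6, Nog and Chrdl1 lower with Cre in Ldha flox and in Nampt flox, 5 of 10 members in each line (5.52% of all genes in Ldha flox and 14.4% in Nampt flox). In Nfkbiz flox edgeR called none of the 10 (0.26% of all genes), as did DESeq2 and limma, and 1 member, Nog, had an unadjusted p under 0.05. Over the 3 lines the same 5 members were called in the same directions (17.8% of all genes), Bmp2 no longer with the replicate number of each line as a block (adjusted p = 0.059) or without any 1 of the 8 Ldha flox and Nampt flox libraries. Within Nfkbiz flox, Bmp2 and Bmp4 did not share the direction of the other lines. Their means were 16.4 and 6.56 CPM with GFP and 15.8 and 6.05 CPM with Cre. Bmp6, Nog and Chrdl1 had lower means with Cre in that line too. Inhba gained a call in Nampt flox with the title set as a block (log2 fold change -0.33, adjusted p = 0.043).

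The largest of these were Bmp4, up 1.75-fold in Ldha flox (log2 fold change 0.80 ± 0.14, adjusted p = 0.0087) and 2.07-fold in Nampt flox (log2 fold change 1.05 ± 0.18, adjusted p = 0.0028), and Nog and Chrdl1 on the lower side. Bmp4 lay at 15.6 and 13.2 CPM with Cre against 8.22 and 8.26 CPM with GFP in Ldha flox, and at 16.0 and 12.3 against 6.30 and 7.53 CPM in Nampt flox. The groups did not overlap in either line. Bmp2 was 1.47-fold higher in Ldha flox (adjusted p = 0.012) and 1.49-fold higher in Nampt flox (adjusted p = 0.0020). Nog was 1.64-fold and 1.97-fold lower and Chrdl1 1.53-fold and 1.88-fold lower in the same order of lines. Bmp6 was 1.41-fold lower in Ldha flox (adjusted p = 0.025) and 1.25-fold lower in Nampt flox (adjusted p = 0.042), and the Nampt flox call was lost with DESeq2, with limma, with no filter, in the model over 24 libraries and without any 1 of its 4 libraries. Grem1 differed by little, with 95% intervals of its log2 fold change of -0.23 to 0.08 in Ldha flox and -0.24 to 0.08 in Nampt flox. In Ldha flox the count of 5 fell to 0 without the first GFP or the first Cre library, to 3 without the second GFP and to 1 without the second Cre library. Over the 3 lines the count fell to 3 without the first GFP or the first Cre library of Ldha flox or of Nampt flox. Chondrocyte markers were called lower with Cre without IL-1β for 8 of 10 in Ldha flox (median log2 fold change -0.49), for 10 of 10 in Nampt flox (median -0.63) and for 0 of 10 in Nfkbiz flox (median -0.14). The 4 endothelial markers summed to 3.30 to 3.57 CPM with GFP and 10.3 to 11.0 CPM with Cre in Ldha flox, to 3.58 to 4.27 and 13.9 to 14.0 CPM in Nampt flox and to 3.81 to 4.53 and 2.36 to 4.66 CPM in Nfkbiz flox, and 1 of them was called higher in Ldha flox and 1 in Nampt flox. The part of either list in the members' values was not tested.

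The fourth comparison was Cre against GFP with IL-1β, the stimulated state. In Ldha flox 7 members were called (1 higher and 6 lower, 34% of all genes), in Nampt flox 8 (1 higher and 7 lower, 48.4% of all genes) and in Nfkbiz flox 3, all lower (17.4% of all genes). Over the 3 lines 6 were called, all lower (37.7% of all genes). Inhba and Fst were lower in every line, Grem1, Nog, Bmp6 and Chrdl1 in Ldha flox and Nampt flox, Bmp2 in Nampt flox and Gdf5 in Nfkbiz flox. Bmp4 was higher in Ldha flox and Nampt flox. With the title set as a block Bmp2 was also called in Ldha flox (log2 fold change -0.27, adjusted p = 0.034).

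Inhba was 2.21-fold lower in Ldha flox (adjusted p = 1.9e-04), 3.39-fold lower in Nampt flox (adjusted p = 1.8e-06) and 2.65-fold lower in Nfkbiz flox (adjusted p = 2.4e-04). Fst was 1.49-fold, 1.82-fold and 2.13-fold lower in the same lines (adjusted p = 0.0059, 1.8e-04 and 4.0e-04). These 2 genes were thus reduced whichever gene was floxed. With IL-1β, Mmp3 was also lower with Cre, at 171 and 156 CPM against 875 and 850 CPM with GFP in Ldha flox. It was 157 and 146 against 867 and 828 CPM in Nampt flox and 286 and 271 against 1797 and 1782 CPM in Nfkbiz flox. The IL-1β response genes Il6, Lcn2 and Saa3 were lower with Cre in every line too. Whether the members' changes are part of a smaller IL-1β response at large was not tested. Chrdl1 was 5.86-fold lower in Ldha flox and 5.62-fold lower in Nampt flox (adjusted p = 9.6e-07 and 3.7e-08), whereas in Nfkbiz flox its log2 fold change was 0.11 (95% interval -0.13 to 0.35). Grem1 was 1.77-fold and 1.98-fold lower in the first 2 lines (adjusted p = 1.3e-05 and 7.6e-07), with a log2 fold change of -0.03 in Nfkbiz flox (95% interval -0.24 to 0.19). Gdf5 was 2.28-fold lower in Nfkbiz flox (adjusted p = 0.0081), a call lost without the first GFP library with IL-1β. Bmp4 was 1.59-fold higher in Ldha flox and 1.83-fold higher in Nampt flox (adjusted p = 0.0048 and 0.0035). Nog, 1.53-fold lower in Ldha flox and 1.54-fold lower in Nampt flox, missed the threshold without either GFP library with IL-1β or the second Cre library with IL-1β in Ldha flox, and without either first library in Nampt flox.

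Other marker lists moved with these Cre effects. Of 10 chondrocyte markers, 9 were called lower with Cre and IL-1β in Ldha flox (median log2 fold change -0.96) and 8 in Nampt flox (median -0.98), while in Nfkbiz flox 1 was called lower and 1 higher (median 0.18). The summed chondrocyte level with Cre and IL-1β was 13446 to 14834 CPM in Ldha flox, 14493 to 15247 CPM in Nampt flox and 36415 to 39097 CPM in Nfkbiz flox. The 4 endothelial markers summed to 16.3 to 21.1 CPM in Ldha flox and 22.4 to 26.3 CPM in Nampt flox with Cre and IL-1β, against 4.75 to 5.18 and 6.68 to 7.27 CPM with GFP and IL-1β. In Nfkbiz flox they went from 3.24 to 4.26 CPM with GFP up to 6.61 to 7.65 CPM with Cre, and none of 3 tested was called. Of these 4, 1 was called higher in Ldha flox, and in Nampt flox 2 were higher and 1 lower. The highest level in any of the 32 libraries was 21.8 CPM for Kdr, 5.74 CPM for Cdh5, 3.74 CPM for Tek and 3.00 CPM for Pecam1. The part of either list in the members' changes was not tested.

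**Figure D3:**
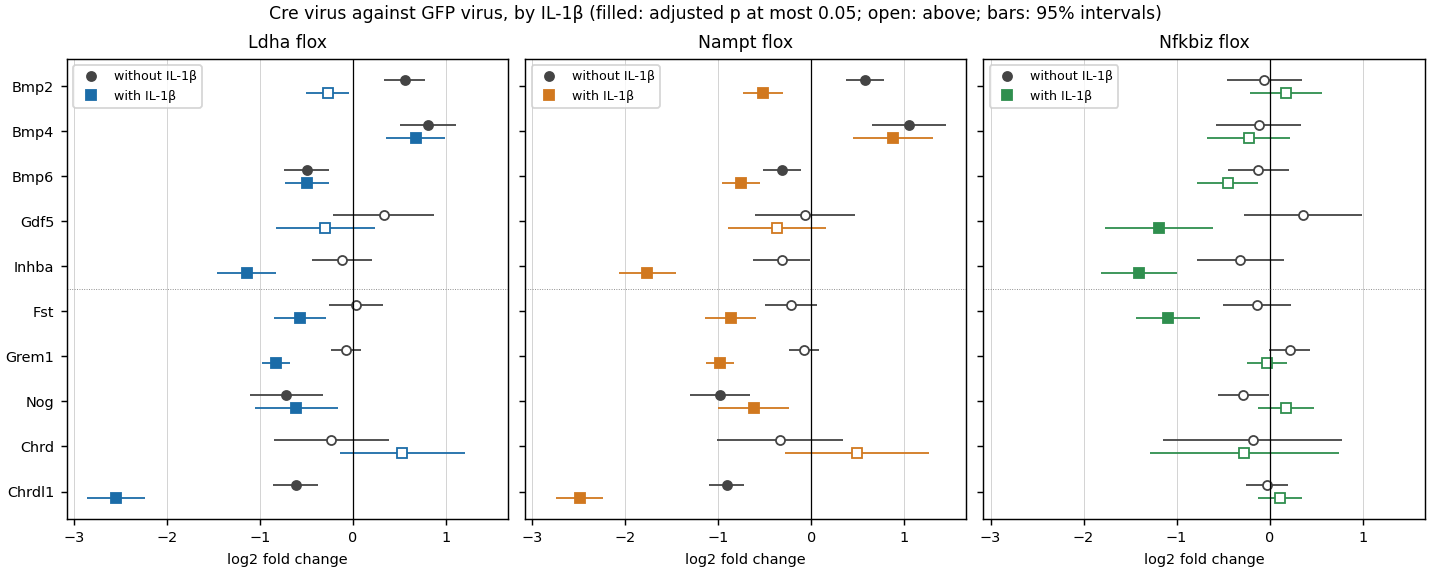
Log2 fold change of Cre against GFP virus for the 10 members in each floxed line, without IL-1β (circles) and with IL-1β (squares); bars are 95% intervals, filled symbols have an adjusted p of at most 0.05 and the dotted line divides ligands from antagonists. Bmp4 lies at 0.67 to 1.05 in Ldha flox and Nampt flox, and with IL-1β Chrdl1 lies at -2.55 and -2.49 in those lines and at 0.11 in Nfkbiz flox.

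The lines were compared in a model over the 24 floxed libraries. The Cre effect with IL-1β differed between Nfkbiz flox and the mean of Ldha flox and Nampt flox for 6 of 10 members (37.4% of all genes). Chrdl1 (2.68 ± 0.13, adjusted p = 3.3e-13), Grem1 (0.92 ± 0.09, adjusted p = 1.2e-08), Nog (0.83 ± 0.18, adjusted p = 6.5e-04) and Bmp2 (0.62 ± 0.17, adjusted p = 0.0068) were higher in Nfkbiz flox on the log2 scale. Bmp4 (-0.96 ± 0.22, adjusted p = 0.0013) and Gdf5 (-0.81 ± 0.30, adjusted p = 0.039) were lower. For Inhba the difference was 0.09 with a 95% interval of -0.31 to 0.49, and for Fst -0.33 with an interval of -0.62 to -0.04, neither of them called. The Gdf5 difference was lost without any of 8 of the 12 libraries in its contrast, and that of Bmp2 without the second Nfkbiz flox library with IL-1β of either virus. Between Ldha flox and Nampt flox edgeR called no member (0.538% of all genes). Inhba, at 0.63 (95% interval 0.18 to 1.08), was the 1 member with an unadjusted p under 0.05, and DESeq2 called 0 members and limma 1. The interval for Chrdl1 was -0.45 to 0.35 and that for Grem1 -0.04 to 0.38.

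The IL-1β response of the GFP cultures themselves differed between Nfkbiz flox and the mean of the other lines for 2 members (4.4% of all genes). The rise of Grem1 was smaller in Nfkbiz flox (difference -0.57 ± 0.09, adjusted p = 2.6e-04, log2 scale), from a higher start. Without IL-1β it stood at 114 and 100.3 CPM in Nfkbiz flox against 27.9 to 37.3 CPM in the other lines, and in title set 2, which holds all Nfkbiz flox libraries, the others were at 36.1 and 30.5 CPM. Bmp4 differed by 0.79 ± 0.22, adjusted p = 0.039, a call lost without any of 9 of the 12 libraries. Nog and Chrdl1 also stood higher in Nfkbiz flox without IL-1β, Nog at 51.6 and 59.8 CPM and Chrdl1 at 192 and 182 CPM, and Fst lower at 8.94 and 8.35 CPM, differences in level that were given no test. The 6 fibroblast and perichondrium markers summed to 539 to 838 CPM in all Nfkbiz flox libraries and to 1792 to 4384 CPM in the other floxed lines, and their part in these levels was not tested.

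**Figure D4:**
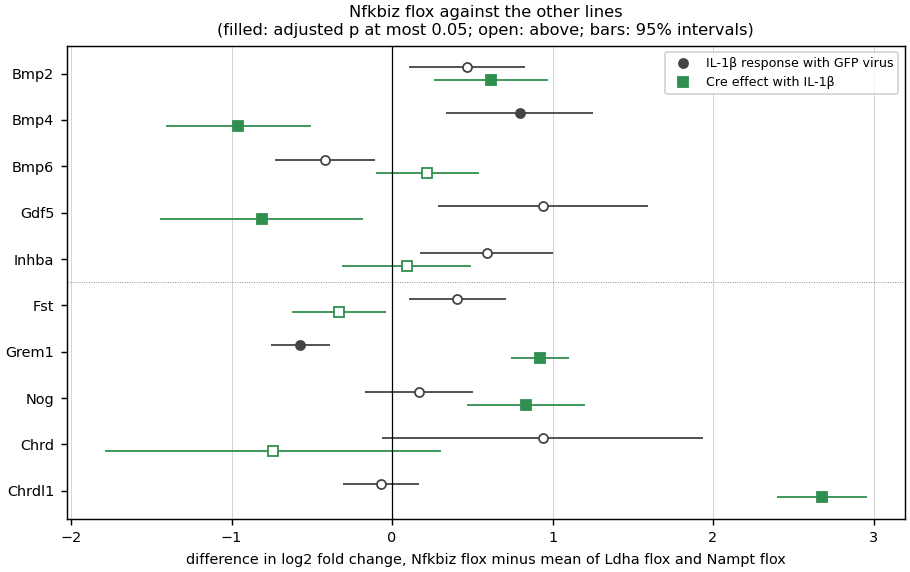
Difference in log2 fold change between Nfkbiz flox and the mean of Ldha flox and Nampt flox for the IL-1β response with GFP virus (circles) and for the Cre effect with IL-1β (squares); bars are 95% intervals and filled symbols have an adjusted p of at most 0.05. Chrdl1 stands at 2.68 for the Cre effect and at -0.07 for the IL-1β response.

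In wild-type cells no member was called in any of the 4 comparisons by edgeR, which called 0% of all genes for IL-1β against untreated, 0% for FX11 against untreated, 0% for IL-1β with FX11 against untreated and 0% for IL-1β with FX11 against IL-1β. In edgeR the members with an unadjusted p under 0.05 numbered 2, 0, 1 and 0 in that order, beside 153, 68, 860 and 102 among all genes tested. Limma called no member, and DESeq2 called 1 member, Bmp4, for IL-1β with FX11 against untreated (log2 fold change -1.52, adjusted p = 0.033). Leaving out both libraries that go against their labels leaves 1 library in the IL-1β and FX11 arms, assumed to vary like the other groups, and no member was called in that fit. The values are given by library, first and second, since the second libraries labelled IL-1β and FX11 are in doubt.

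Inhba was 18.9 and 4.61 CPM in untreated cells, 67.0 and 4.14 CPM in those labelled IL-1β, 16.2 and 11.2 CPM in those labelled FX11 and 49.4 and 13.2 CPM in those labelled with both. Fst was 13.1 and 11.5, 40.8 and 5.19, 14.1 and 19.3 and 31.5 and 7.04 CPM in the same order. Chrdl1 was 83.4 and 325, 16.7 and 228, 56.3 and 101 and 14.8 and 77.4 CPM. In the first libraries of each pair, which form title set 1, Inhba and Fst were higher and Chrdl1 lower with IL-1β than in untreated cells, a single library in each state with no replicate check. Grem1 was 59.0 and 191 CPM untreated and 241 and 121 CPM in those labelled IL-1β, so that the untreated pair alone spanned more than 3-fold. Markers of other cell types differed within the untreated pair too. Lower value first, their summed levels were 37.4 and 197 CPM for skeletal muscle, 83.6 and 199 CPM for macrophages and 2.71 and 37.7 CPM for erythroid cells. Chondrocyte markers summed to 96843 and 99172 CPM. The part of these lists in the members' levels was not tested. Nog was 43.2 and 35.6 CPM untreated, 15.3 and 24.1 CPM in those labelled IL-1β and 21.2 and 19.1 CPM in those with both. Bmp4 was 14.9 and 13.0 CPM untreated and 3.30 and 6.60 CPM with both agents. For FX11 added to IL-1β, the 95% interval of the log2 fold change was -3.21 to 2.85 for Inhba and -4.60 to 1.77 for Chrdl1. These intervals span large changes in either direction, and the 4 libraries compared include the IL-1β library in doubt. Without the libraries in doubt, the log2 fold change of Chrdl1 for IL-1β with FX11 against IL-1β moved from -1.41 to 1.48. That value sets 1 library of title set 1 (16.7 CPM) against libraries of both sets (14.8 and 77.4 CPM), and the sets differ in untreated cells (83.4 and 325 CPM). With the same libraries left out, the log2 fold change of Inhba for IL-1β against untreated moved from 1.59 to 2.5 (adjusted p = 0.61) and that of Chrdl1 from -0.74 to -3.63 (adjusted p = 0.60).

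**Figure D5:**
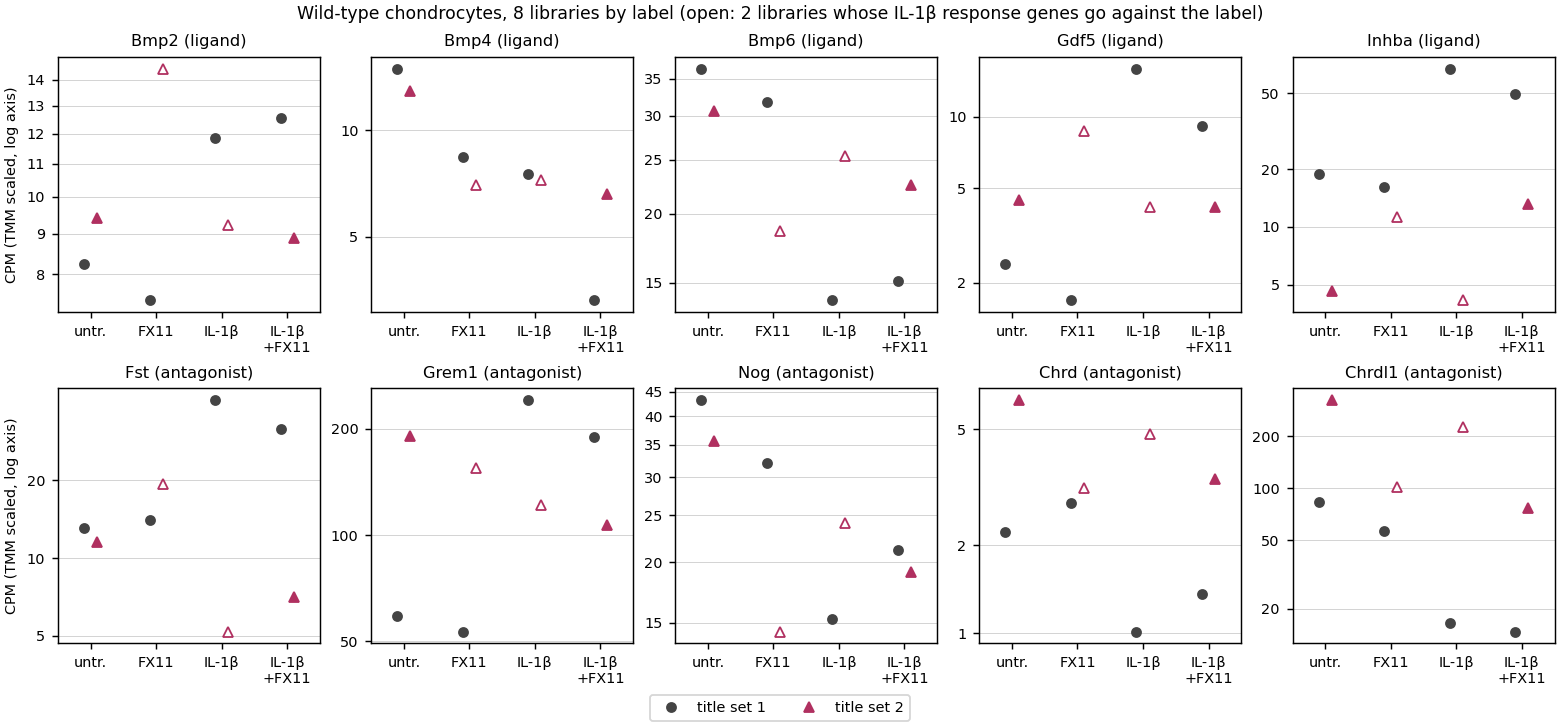
Level of each member in CPM (TMM scaled, log axis) in the 8 wild-type libraries by label, with title set 1 as circles and title set 2 as triangles; open triangles are the 2 libraries whose IL-1β response genes go against their labels. The 2 sets stand apart for Chrdl1, at 83.4 and 325 CPM in untreated cells, and for Grem1, at 59.0 and 191 CPM.

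Around these members, 70 further genes of BMP and activin signalling were followed, of which 58 passed the filter over the GFP libraries of the 3 lines. Of these, 19 were called higher and 25 lower with IL-1β, beside 56.2% called among all genes, with a median log2 fold change of -0.08. Among 10 other ligands tested 1 rose and 7 fell, among 12 other antagonists 6 rose and 4 fell, and among 13 receptors and coreceptors 7 rose and 4 fell. The antagonist Tsku, tsukushi, rose by 1.95 ± 0.08, adjusted p = 1.5e-12 on the log2 scale. The coreceptor Tgfbr3, betaglycan, rose by 1.65 ± 0.07, adjusted p = 2.4e-12. Fstl1, a relative of follistatin, rose by 1.4 ± 0.07, adjusted p = 2.1e-11, and Bmper, a BMP binding protein, by 1.33 ± 0.07, adjusted p = 1.6e-10. Pcsk6, a protease that cleaves ligand precursors, changed by -1.42 ± 0.04, adjusted p = 3.1e-14. Bambi, a decoy receptor, changed by -1.15 ± 0.07, adjusted p = 2.1e-10, Dlx5, a BMP target, by -1.53 ± 0.10, adjusted p = 1.4e-09 and Smad9 by -0.82 ± 0.06, adjusted p = 3.3e-09. Of 6 SMAD genes tested, 1 was higher and 2 were lower.

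With Cre and IL-1β against GFP and IL-1β, 15 of 62 listed genes tested were higher and 23 lower in Ldha flox (34% called among all genes), 15 and 27 of 62 in Nampt flox (48.4%), and 7 and 12 of 61 in Nfkbiz flox (17.4%). Among other antagonists 1 was higher and 6 lower of 12 in Ldha flox, 2 and 6 of 12 in Nampt flox and 1 and 5 of 13 in Nfkbiz flox. Bmp5 was lower (-2.90 ± 0.13, adjusted p = 2.5e-07 in Ldha flox and -3.36 ± 0.18, adjusted p = 1.0e-07 in Nampt flox), as were Bmp3 (-3.37 and -4.56), a BMP that restrains the others, and the receptor Bmpr1b (-1.71 and -2.14). Bmp7 was higher (1.91 ± 0.11, adjusted p = 1.2e-06 in Ldha flox and 2.65 ± 0.13, adjusted p = 5.4e-08 in Nampt flox), as were the target gene Dlx3 (3.41 and 3.72) and the coreceptor Eng, endoglin (0.98 and 1.25), which was also higher in Nfkbiz flox (0.76 ± 0.12, adjusted p = 6.6e-04). Inhbb, which encodes the βB chain of activins, was higher in Ldha flox (1.70 ± 0.09, adjusted p = 1.1e-06), and its Cre effect in Nfkbiz flox minus that in the other lines was -2.48 ± 0.22, adjusted p = 3.3e-09. Bmp3 moved up in Nfkbiz flox (1.11 ± 0.17, adjusted p = 5.8e-04), and the difference from the other lines was 5.12 ± 0.30, adjusted p = 4.5e-12. In Nfkbiz flox the lower genes were led by Bmper (-1.82 ± 0.14, adjusted p = 2.2e-06), Fstl1 (-0.96 ± 0.09, adjusted p = 1.5e-05), Tgfbr3 (-0.90 ± 0.10, adjusted p = 4.6e-05) and Tsku (-0.92 ± 0.10, adjusted p = 6.3e-05). Without IL-1β, none of 61 listed genes was called in that line (0.26% of all genes), against 7 higher and 3 lower of 62 in Ldha flox (5.52%) and 10 and 10 of 62 in Nampt flox (14.4%).

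The genes whose 16 condition means (log2 CPM) were most alike to a member are given as a description over 14250 genes, with no test, since the conditions share lines and libraries. For Chrdl1 they were Col11a1 (Pearson r = 0.996), a fibrillar collagen of cartilage, Panx3 (0.989) and Ppp1r1b (0.987). For Nog they were Msi2 (0.988), Smo (0.980), the Hedgehog signal transducer, and Fgfr3 (0.975), the FGF receptor that restrains growth plate chondrocytes. Inhba was most like Cblb (0.974), C1galt1 (0.960) and Ptgr1 (0.956), and Fst like Sinhcaf (0.966), Eif4a1 (0.953) and Arid5a (0.947). The closest to Grem1 was Bnip3l-ps (0.906), to Bmp2 Btbd19 (0.942), to Chrd Plxdc1 (0.915), to Gdf5 Steap2 (0.890), to Bmp6 Rrp15 (0.844) and to Bmp4 Tbc1d4 (0.832).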

How the data were processed

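Total RNA from 32 libraries was depleted of ribosomal RNA and sequenced on an Illumina HiSeq. According to the methods, the authors aligned reads to the Ensembl release 76 assembly (GRCm38) with STAR and counted unique, unambiguous reads per gene with featureCounts. The deposited values used here are raw counts. The submitters' processing notes give STAR as version 2.0.4b and featureCounts as 1.45, and the methods give other versions of both. The deposited CPM equalled count over library total in all libraries and the deposited RPKM further divided by gene length, and neither entered a test.

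Members were matched by symbol to Ensembl identifiers through GENCODE M21, and 355 ribosomal RNA genes were left out. Genes above 1 CPM in at least 1 library (at least 5 for the comparisons over the 3 lines) were tested with edgeR's quasi-likelihood test (R 4.3.3, edgeR 4.0.16, TMM, two-sided, Benjamini-Hochberg over all genes tested), within the 8 libraries of a line, or with line and title set as covariates. All 10 members passed the filter in each comparison. The deviations of same-numbered libraries from their group means correlated at 0.33 to 0.54 in Ldha flox and 0.34 to 0.45 in Nampt flox over 6 pairs of conditions and 14250 genes, where the number is the title set, so the sets pair those libraries. Not every pair passed in wild type (-0.16 to 0.73) and none in Nfkbiz flox (-0.22 to 0.09). Alternatives were DESeq2 1.42.0, limma 3.58.1 (voomWithQualityWeights), RLE factors, no filter, filterByExpr, the replicate block, a model over 24 libraries, each library left out and, chosen after seeing the data, both doubted wild-type libraries left out. The tests were tried on simulated counts. Named genes are the 10 members, the deleted and IL-1β response genes, up to 4 listed pathway genes with the smallest adjusted p in each direction per comparison, and the 3 genes most like each member. Members, lists and rules were chosen with earlier results of these data known.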

Additional observations from a re-analysis of the deposited data

Results flagged for a closer look

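The IL-1β response differed between Cre and GFP cultures of the same line for several members, by the test of the difference itself in edgeR (Cre minus GFP, log2 scale). In Ldha flox these were Bmp2 (-0.83 ± 0.14, adjusted p = 0.0054), Inhba (-1.02 ± 0.20, adjusted p = 0.010), Grem1 (-0.75 ± 0.10, adjusted p = 0.0012) and Chrdl1 (-1.93 ± 0.18, adjusted p = 1.6e-04). In Nampt flox they were Bmp2 (-1.09 ± 0.13, adjusted p = 2.7e-04), Bmp6 (-0.44 ± 0.13, adjusted p = 0.032), Inhba (-1.45 ± 0.19, adjusted p = 4.7e-04), Fst (-0.65 ± 0.18, adjusted p = 0.023), Grem1 (-0.91 ± 0.10, adjusted p = 1.2e-04) and Chrdl1 (-1.58 ± 0.14, adjusted p = 3.6e-05). In Nfkbiz flox they were Gdf5 (-1.54 ± 0.39, adjusted p = 0.041), Inhba (-1.09 ± 0.28, adjusted p = 0.046) and Fst (-0.96 ± 0.23, adjusted p = 0.031).

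Between lines, the IL-1β response with GFP virus in Nfkbiz flox differed from the mean of Ldha flox and Nampt flox for Bmp4 (0.79 ± 0.22, adjusted p = 0.039) and Grem1 (-0.57 ± 0.09, adjusted p = 2.6e-04). The Cre effect with IL-1β differed in the same way for Bmp2 (0.62 ± 0.17, adjusted p = 0.0068), Bmp4 (-0.96 ± 0.22, adjusted p = 0.0013), Gdf5 (-0.81 ± 0.30, adjusted p = 0.039), Grem1 (0.92 ± 0.09, adjusted p = 1.2e-08), Nog (0.83 ± 0.18, adjusted p = 6.5e-04) and Chrdl1 (2.68 ± 0.13, adjusted p = 3.3e-13). Of 60 such differences tested over the members, 21 were called.

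A single value stood far from its group. Chrd in the first Nfkbiz flox library with Cre and IL-1β was 0.889 CPM, the lowest of the 6 libraries with Cre and IL-1β, and its gap to the next was 0.752 of the range, over the 95% critical value of 0.625. That value rests on 21 counts. Of 40 groups of 6 libraries examined, chance alone would mark about 1 in 20, were the libraries of a group alike.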

How the results depend on the processing

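No called change of a member reversed under any alternative. Under the alternatives other than leaving out a library, 1621 of 1690 member values kept their direction and side of the threshold, 20 lost a call, 29 gained one and 20 changed sign. With 1 library left out, 1330 of 1560 kept both, 118 lost a call, 21 gained one and 91 changed sign. The values that changed sign were called neither before nor after, and the cause was not tested. Limma gave 1 called member in place of 3 for the difference of IL-1β responses in Nfkbiz flox, 5 in place of 2 for the difference of IL-1β responses with GFP virus between Nfkbiz flox and the other lines, and 1 in place of 0 for Ldha flox minus Nampt flox. No filter also gave 5 in place of 2 for the former comparison of lines, and DESeq2 gave 1 in place of 0 for IL-1β with FX11 against untreated wild type; the cause was not tested. With 1 library left out, the count of called members ranged from 0 to 3 (main 5) for Cre without IL-1β in Ldha flox and from 3 to 5 (main 5) for the same over the 3 lines. It ranged from 0 to 3 (main 3) for the difference of responses in Nfkbiz flox and from 1 to 2 (main 2) for the difference of IL-1β responses between the lines. Why the counts fell was not tested.

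With the replicate block, the count of called members moved in no comparison by over 1.5 times, for example from 8 to 9 for IL-1β with GFP virus in Ldha flox and from 8 to 10 in Nampt flox. In Ldha flox and Nampt flox, where the block pairs libraries, it ended no call on a member. A call gained there and not given above was Bmp6 for IL-1β with Cre virus in Ldha flox (adjusted p = 0.024). In Nfkbiz flox, whose libraries share only a number, it gave 6 in place of 7 and 2 in place of 3. Chrd, with 21 to 172 counts per library, and Gdf5, with 49 to 567, were the members with the fewest counts.

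The sign changes under the other alternatives were as follows. For the difference of responses in Ldha flox, Bmp6 was -0.018 with limma, -0.0086 with no filter, -0.045 with edgeR's own filter, -0.0029 with the replicate block and -0.040 in the model over 24 libraries. For Ldha flox minus Nampt flox, Nog was -0.00016 with DESeq2, -0.053 with no filter and -0.013 with edgeR's filter, and Chrd was -0.10 with limma, -0.044 with no filter and -0.0042 with edgeR's filter. For FX11 added to IL-1β in wild type, limma gave Inhba 0.60 and Fst 0.11, and the replicate block gave Inhba 0.30. Without both libraries in doubt that comparison gave Bmp2 -0.13, Bmp6 0.45, Chrd 1.23 and Chrdl1 1.48, and FX11 against untreated gave Bmp2 -0.26 and Gdf5 -1.04. With single libraries dropped, the members that changed sign had log2 fold changes for Cre without IL-1β of Inhba -0.35 to 0.062 and Fst -0.14 to 0.17 in Ldha flox, Gdf5 -0.32 to 0.36 and Grem1 -0.16 to 0.016 in Nampt flox, Bmp2 -0.38 to 0.20, Bmp4 -0.37 to 0.085, Gdf5 -0.015 to 0.72, Inhba -0.61 to 0.051, Chrd -0.64 to 0.17 and Chrdl1 -0.088 to 0.020 in Nfkbiz flox, and Grem1 -0.0098 to 0.075 over the 3 lines. For Cre with IL-1β in Nfkbiz flox they ranged over Bmp2 -0.020 to 0.35, Grem1 -0.11 to 0.060, Chrd -1.17 to 0.28 and Chrdl1 -0.021 to 0.23. For IL-1β with Cre virus the ranges were Gdf5 -0.24 to 0.38 in Ldha flox, Bmp6 -0.22 to 0.0096 and Inhba -0.046 to 0.21 in Nampt flox, and Gdf5 -0.13 to 0.52 and Chrd -1.36 to 0.092 in Nfkbiz flox. The differences of responses ranged over Bmp6 -0.19 to 0.14 and Nog -0.26 to 0.31 in Ldha flox, Bmp4 -0.38 to 0.043 in Nampt flox, and Bmp2 -0.016 to 0.56, Bmp4 -0.31 to 0.14 and Chrd -0.99 to 0.46 in Nfkbiz flox. Between lines the ranges were Gdf5 -0.25 to 0.34, Nog -0.21 to 0.18, Chrd -0.41 to 0.55 and Chrdl1 -0.21 to 0.11 for Ldha flox minus Nampt flox, Bmp6 -0.087 to 0.47 and Inhba -0.066 to 0.23 for the Cre effect in Nfkbiz flox minus the others, and Chrdl1 -0.15 to 0.0029 for the IL-1β response. In wild type they were Inhba -1.50 to 2.93, Fst -1.24 to 1.72, Grem1 -0.094 to 1.63, Chrd -2.08 to 0.40 and Chrdl1 -3.63 to 0.57 for IL-1β, Bmp2 -0.26 to 0.74, Gdf5 -1.03 to 1.37, Inhba -0.45 to 1.57, Grem1 -1.25 to 0.84 and Chrd -1.09 to 0.43 for FX11, Fst -0.81 to 1.35, Grem1 -0.38 to 1.34 and Chrd -1.64 to 0.096 for both agents against untreated, and Bmp2 -0.22 to 0.25, Bmp6 -0.44 to 0.45, Gdf5 -1.25 to 0.67, Inhba -1.4 to 2.92, Fst -1.68 to 1.89, Grem1 -0.74 to 0.28, Nog -0.27 to 0.41, Chrd -1.09 to 1.23 and Chrdl1 -3.06 to 1.48 for FX11 added to IL-1β.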
